A study of Caenorhabditis elegans with 2 samples.

Results

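HIF-1 peaks that lay between genes and away from promoters made up 808 of the 3531 HIF-1 peaks of the optimal list (22.9%, 95% exact Clopper-Pearson interval 21.5% to 24.3%). They were chosen by position alone. The summit had to lie outside every protein-coding gene body, outside the window from 1000 bp upstream to 200 bp downstream of any protein-coding transcript start, and more than 250 bp from any tRNA, snRNA, snoRNA, rRNA or miRNA gene. The bases of the nuclear genome that meet these conditions, called eligible bases here, were 24.8% of it. The other peaks were 1923 in promoter windows, 516 in gene bodies and 284 near small non-coding RNA genes.

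The data come from chromatin immunoprecipitation with sequencing in the nematode Caenorhabditis elegans. All samples were whole L4 larvae, pooled over the sexes, of the transgenic strain OR3349, which stably expresses HIF-1 fused at its C terminus to a GFP-FLAG tag, and the larvae were collected 52 h after synchronization as starved L1 larvae. The 2 samples are biological replicates of this single group, immunoprecipitated with an antibody against GFP, and no second condition was analysed here. The oxygen level, the tissues in which the tagged protein was made and the copy number of the transgene could not be taken from the labels, and the peaks are an average over all tissues of the larva.

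HIF-1 is the hypoxia-inducible factor of the worm, a transcription factor that binds DNA as a dimer with AHA-1. At normal oxygen the prolyl hydroxylase EGL-9 marks HIF-1 for degradation through VHL-1, and at low oxygen or when EGL-9 is inhibited HIF-1 accumulates. The core of its binding site, the hypoxia response element, is RCGTG, that is ACGTG or GCGTG. Both strands were searched, so that CACGT and CACGC on the printed strand also count, and the palindrome CACGTG holds the core once on each strand.

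The windows of 50 bp to each side of the summits of 7 distal peaks with a core are shown first, because they lie nearest to genes of the HIF-1 pathway, of glycolysis and of sulfur amino acid metabolism or are among the strongest. All are on the forward strand of WBcel235, which has the coordinates of ce11, were read from the RefSeq copy of that assembly and were picked after their values were seen. The windows are V:10466720-10466820 for egl-9, II:12040348-12040448 for tpi-1, II:14495537-14495637 for cysl-2, V:3777129-3777229 for cysl-3, X:2939237-2939337 for pfk-1.1, III:7376545-7376645 for mml-1 and IV:9718477-9718577 for K01H12.4. Each is named after the gene with the nearest protein-coding start, and capitals mark every match to the core.
egl-9: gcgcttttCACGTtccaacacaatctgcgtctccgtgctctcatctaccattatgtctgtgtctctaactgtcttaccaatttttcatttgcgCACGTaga
tpi-1: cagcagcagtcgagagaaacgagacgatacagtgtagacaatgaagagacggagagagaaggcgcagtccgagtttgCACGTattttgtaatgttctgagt
cysl-2: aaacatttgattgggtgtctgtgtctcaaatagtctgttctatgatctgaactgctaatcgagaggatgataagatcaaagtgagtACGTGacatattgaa
cysl-3: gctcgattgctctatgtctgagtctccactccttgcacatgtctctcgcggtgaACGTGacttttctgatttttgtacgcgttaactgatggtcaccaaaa
pfk-1.1: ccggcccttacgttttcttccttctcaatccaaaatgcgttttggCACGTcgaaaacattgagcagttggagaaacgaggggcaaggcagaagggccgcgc
mml-1: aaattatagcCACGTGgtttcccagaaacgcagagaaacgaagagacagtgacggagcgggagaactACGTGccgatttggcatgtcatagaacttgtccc
K01H12.4: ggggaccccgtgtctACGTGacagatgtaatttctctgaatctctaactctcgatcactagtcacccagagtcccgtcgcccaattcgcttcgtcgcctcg

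The next windows belong to a pair of strong distal peaks with no core within 50 bp of the summit, II:14244608-14244708 for jmjd-2 and V:20778362-20778462 for hif-1 itself. Capitals mark GAGAGA, or TCTCTC for the other strand, the 6-letter word with the smallest adjusted p among those that were more frequent at distal summits than beside them. Among the windows with a core above, those of tpi-1 and cysl-3 also hold this word, left unmarked there.
jmjd-2: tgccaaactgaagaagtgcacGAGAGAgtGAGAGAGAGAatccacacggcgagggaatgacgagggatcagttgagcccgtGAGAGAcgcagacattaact
hif-1: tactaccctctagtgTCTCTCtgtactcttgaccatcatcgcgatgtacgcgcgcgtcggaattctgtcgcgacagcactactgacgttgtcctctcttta

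The egl-9 window held the core at both of its edges, centred 40 bp before and 45 bp after the summit, and the mml-1 window held the palindrome CACGTG and a further ACGTG. At jmjd-2, 3 separate runs with GAGAGA lay within the window. At hif-1 a single TCTCTC was present. A match is a description of these letters and does not show which protein was bound.

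Every distal peak carries a signal, the authors' own deposited value for regions called against a control alignment. This value has no stated unit or definition and is not scaled between lists. The median signal of the 808 distal peaks was 149 (quartiles 116 and 232, range 95.1 to 7830), beside 171 for promoter peaks and 137 for gene-body peaks. In the list of replicate 1 the medians were 65.5 for distal peaks and 67.3 for promoter peaks, and in the list of replicate 2 they were 93.7 and 105 in the same order. Signals above 1000 were found at 12 distal peaks and above 500 at 46. Sequencing depth is unknown, since the lists carry no read counts, and the intervals here cover counting error over peaks only.

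Strong peaks were present among the distal ones. Of the 353 strongest IDR peaks, 82 were distal, 10.1% of distal peaks (95% interval 8.15% to 12.4%), and 221 were promoter peaks, 11.5% of those (10.1% to 13.0%). The odds ratio was 0.870 and not past the threshold (Fisher's exact test, two-sided, p = 0.318). A wider cut gave another answer. With peaks above the median IDR signal in place of the 353 strongest, distal peaks were the less frequent ones (odds ratio 0.719, Fisher's exact test, p = 9.44e-05).

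Most distal peaks were seen in both replicates. A candidate region with its summit within 100 bp was present in both replicate lists for 769 of 808 distal peaks (95.2%, 95% interval 93.5% to 96.5%) and for 1857 of 1923 promoter peaks (96.6%, 95.7% to 97.3%), an odds ratio of 0.701 (Fisher's exact test, two-sided, p = 0.101). The difference passed when summits had to match within 50 bp (odds ratio 0.717, exact p = 0.00242). With a match within 200 bp it did not, at 801 of 808 distal peaks (99.1%) and 1908 of 1923 promoter peaks (99.2%, odds ratio 0.900, exact p = 0.817). The difference passed when 1 summit was kept per 500 bp (0.567, exact p = 0.0155), and it turned to 1.22 among peaks above the median IDR signal (exact p = 0.811). With the match within 100 bp, 27 distal peaks were missing from the list of replicate 1 and 13 from that of replicate 2, including 1 missing from both. Of the distal peaks taken in 4 groups of 202 from strongest to weakest, all 202, 197, 194 and 176 were found in both lists. The candidate lists include background regions. The IDR peaks were selected for agreement between these same replicates, so high shares in both lists were largely set in advance. This holds for distal and promoter peaks alike, and the test between them does not measure reproducibility apart from that selection. Among the 3531 strongest regions of each replicate, 549 distal peaks (67.9%) were present in both. Across the 769 shared peaks, Spearman's rho between the replicates' signals was 0.725 and Pearson's r of the log2 signals was 0.820, given as a description because both replicates had entered the selection of these peaks.

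**Figure D1:**
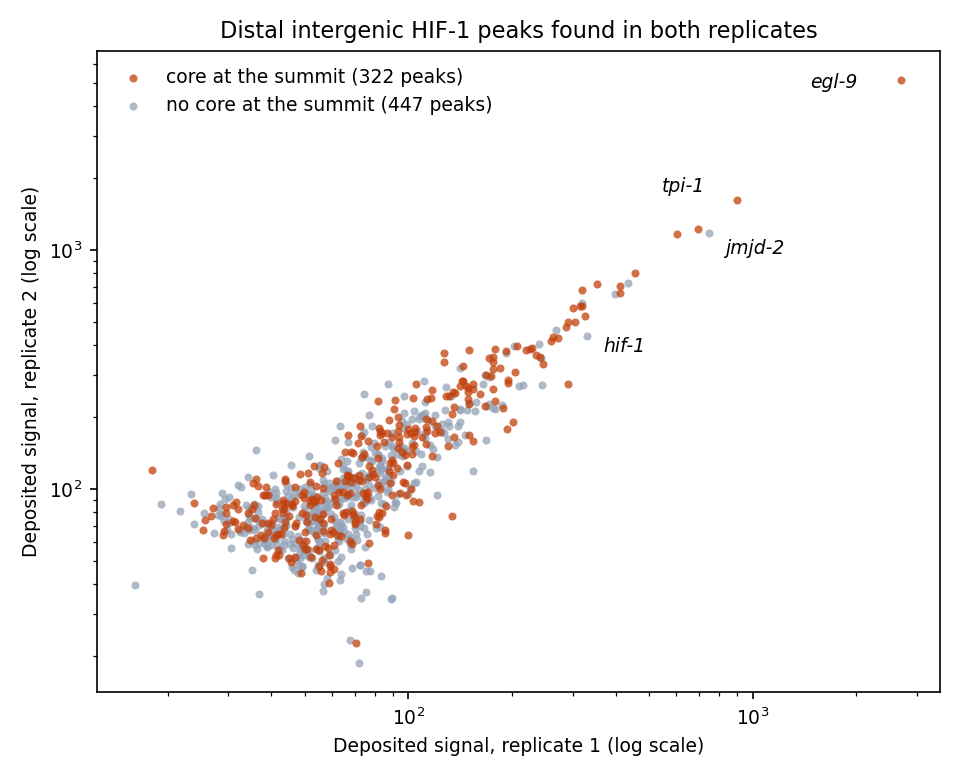
Deposited signal of the distal peaks found in both replicates, replicate 1 on the x axis and replicate 2 on the y axis (log scales, no stated unit), 1 point per peak, with peaks that have a core within 50 bp of the summit in orange and the others in grey. The egl-9 peak stands at 2707 in replicate 1 and 5147 in replicate 2, apart from all other distal peaks, and the jmjd-2 and hif-1 peaks are grey points among the strong peaks.

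The strongest distal peak was also the strongest of all 3531. It lay 1747 bp upstream of the nearest start of egl-9, the HIF-1 prolyl hydroxylase, with a signal of 7830 in the pooled list, 2707 in replicate 1 and 5147 in replicate 2, rank 1 in each. Its region, V:10466293-10467557, lies in the space between chw-1 and egl-9, and the summit falls within an annotated non-coding RNA gene. The next was the peak 1259 bp upstream of tpi-1, triosephosphate isomerase, with a signal of 2516 (replicate 1, 899, replicate 2, 1617). Both replicates thus placed these peaks above all other distal ones. The peak of jmjd-2, a JmjC histone demethylase gene, stood at 1905 (745 and 1175 in replicates 1 and 2), 1055 bp upstream of the start. That of K01H12.4 stood at 1921 (694 and 1229), 5445 bp downstream of the K01H12.4 start.

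The 20 strongest distal peaks were all found in both replicates, which the selection of IDR peaks favours. Of these 20, 15 had a core within 50 bp of the summit. Metabolic and ubiquitin genes among the nearest ones were cysl-3, a cysteine synthase-like gene (signal 893, 1043 bp upstream), ubc-8, a ubiquitin-conjugating enzyme gene (1179, 1620 bp upstream), and tgt-1, a tRNA queuosine enzyme gene (1254, 3242 bp downstream of its start). Transcription factor genes were nhr-3 (1065) and nhr-19 (850), both nuclear hormone receptors, mml-1, the Mondo-like partner of Max proteins (872, 1864 bp upstream), and hif-1 (772, 1995 bp upstream). The others were madf-1 (1764), W09D10.4 (1122), oac-54 (1076), ppm-2 (1051), F09E10.1 (1006), D2023.4 (920), pfn-2, a profilin gene (901), R03E9.2 (800) and ZK1073.1 (774). The 5 without a core were those of jmjd-2, ubc-8, ppm-2, D2023.4 and hif-1. The nearest start is a position only, since expression was not measured.

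The oac-54 peak lay 4864 bp upstream of the start of rhy-1, which acts upstream of egl-9 in the HIF-1 pathway. Within 8 kb of the rhy-1 start, 3 distal peaks had signals of 387, 183 and 1076, at 6864, 6100 and 4864 bp upstream, and 3 peaks in promoter windows had 198, 98.2 and 2031. Each of these 6 had a core at its summit. Around egl-9, distal peaks lay 3576 bp upstream (383) and 1747 bp upstream (7830). The peak of 383 was nearer to the start of F22E12.3, 1565 bp upstream of it. Beside these distal peaks were a promoter peak 93 bp upstream (981) and 6 further peaks inside the gene with signals from 115.3 to 364.1. Upstream of cysl-2, a cysteine synthase-like gene, distal peaks lay at 1136 bp (701) and 2571 bp (566) and a promoter peak at 229 bp (303). The peak of 566 was nearer to the start of dhs-8, 1004 bp upstream of it. At egl-9 and at cysl-2, then, the strongest peak upstream of the gene was a distal one, whereas at rhy-1 the promoter peak was stronger than each distal peak.

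At hif-1, 3 distal peaks lay upstream of the gene, at 3438 bp (321), 3239 bp (122) and 1995 bp (772). Another lay 5267 bp from the start, past the gene's end (163). The peaks of 321 and 122 were nearer to the start of F38A6.4, the first of them 1600 bp upstream of it. The core was present only at the peak of 122. The strain carries tagged hif-1 sequence, and signal from the inserted and the native copy cannot be told apart at this locus. Upstream of pfk-1.1, phosphofructokinase, distal peaks lay at 1585 bp (691, with a core) and 1379 bp (130, without one). The tpi-1 peak was the only distal one within 8 kb of the tpi-1 start.

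**Figure D2:**
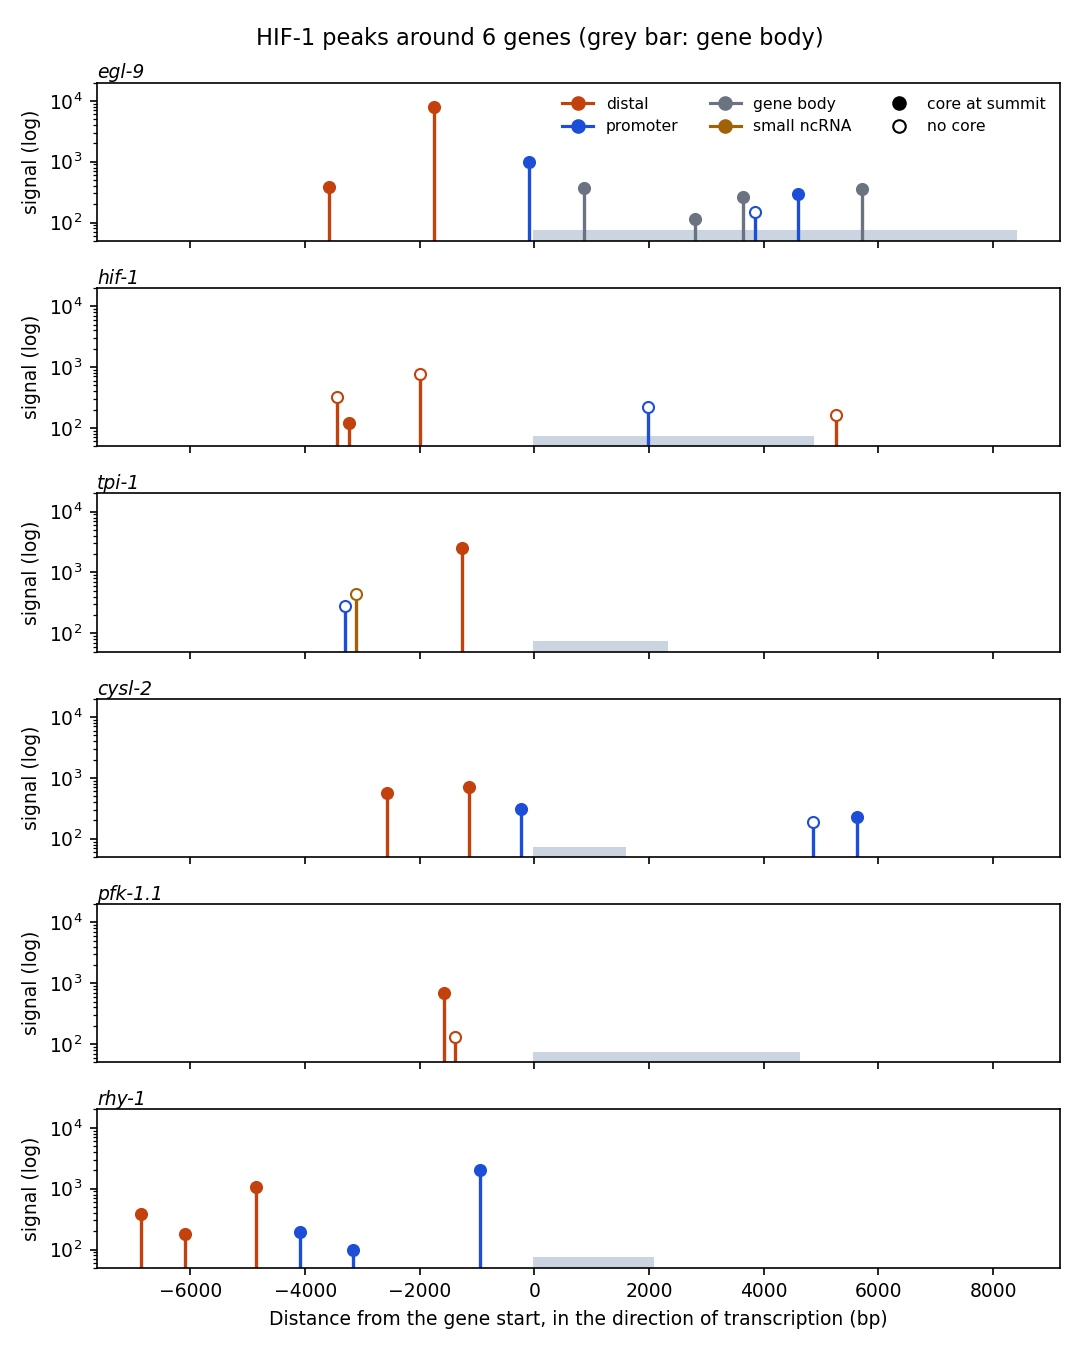
IDR peaks within 8 kb of the start of 6 genes, plotted by distance from the gene start in the direction of transcription (bp) against the deposited signal (log scale, no stated unit), coloured by location class, with filled points where a core lies within 50 bp of the summit. The distal egl-9 peak at 7830 and the distal tpi-1 peak at 2516 are the highest points of their panels, and at rhy-1 the promoter peak at 2031 is above the 3 distal peaks.

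The core of the hypoxia response element was more frequent at distal summits than beside them. Of 808 distal peaks, 331 held it within 50 bp of the summit (41.0%, 95% interval 37.6% to 44.4%) and 118 in an equally wide window placed 500 bp to the side (14.6%, 12.2% to 17.2%), 2.81 times as often. The summit alone held it in 280 peaks and the flank alone in 67 (exact McNemar test, two-sided, p = 4.35e-32). Over all eligible positions the share of windows with a core was 12.3%, and over positions of promoter windows it was 14.0%. Of the 331 peaks, 104 had at least 2 matches, both strands of a palindrome counted, and 25 had at least 3. The nearest match lay at a median of 20 bp from the summit, within 25 bp at 200 peaks (60.4%) and within 10 bp at 81. The search ended at 50 bp, and the distances that even placement in the window would give were not computed. In 20-bp bins from 60 bp before to 59 bp after the summit, the share of distal peaks with a core was nearly level, from 9.16% to 10.9%.

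Base composition moved with this result. Mean GC content was 45.6% ± 8.17 at distal summits and 33.4% ± 7.98 in their flanks (SD, 808 peaks), higher at the summit in 700 peaks, lower in 96 and equal in 12 (exact sign test, two-sided, p = 4.39e-114). The core contains CG, and of 122 strand-merged 5-letter words with CG the median was 1.80 times as frequent at summits as in flanks. ACGTG stood at 2.97 times, 21st of the 122, and GCGTG at 2.89 times, 24th. The share of the core's excess that goes with composition was not tested.

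Distal peaks did not differ detectably from other peaks in how often they held the core. Its share was 41.0% at distal peaks and 43.3% at promoter peaks (832 of 1923, 95% interval 41.0% to 45.5%), an odds ratio of 0.910 (Fisher's exact test, two-sided, adjusted p = 0.361). Gene-body peaks had 43.6% (225 of 516, 39.3% to 48.0%), which gave distal peaks an odds ratio of 0.897 against them (adjusted exact p = 0.361). The direction was not stable, and the odds ratio against promoter peaks was 1.04 among peaks above the median IDR signal and 1.11 with 100 bp to each side of the summit.

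**Figure D3:**
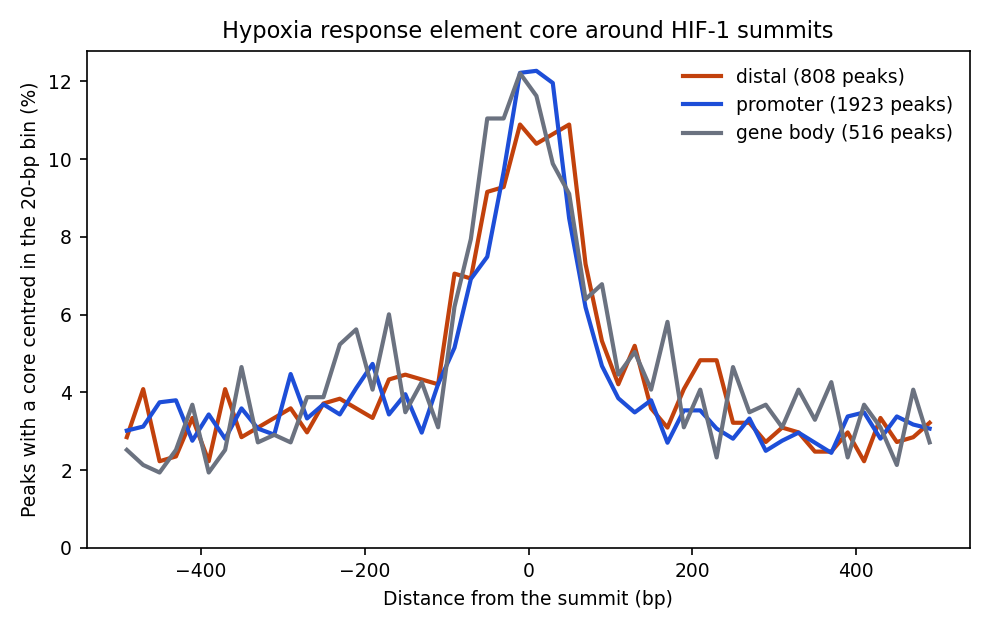
Share of peaks with a core centred in each 20-bp bin (%) by distance from the summit (bp), for distal, promoter and gene-body peaks. The distal line is highest at 10.9% in the bins just before the summit and 40 to 59 bp after it, and all lines come down to similar levels within 200 bp.

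Stronger distal peaks held the core more often. It was present at 116 of the 202 strongest distal peaks (57.4%, 95% interval 50.3% to 64.3%), whose signals ran from 233 to 7830, and at 69 of the 202 weakest (34.2%, 27.6% to 41.1%), an odds ratio of 2.60 (Fisher's exact test, two-sided, p = 3.96e-06). The 2 groups of 202 between them had 36.1% each, close to the weakest. The odds ratio ran from 2.47 to 4.24 over 11 alternatives, all past the threshold. Distal peaks with a core had a median signal of 171 and those without it 139. The same order held in replicate 1 (72.9 with, 62.2 without) and in replicate 2 (103 with, 87.5 without). Mean GC content was 46.1% in windows with a core and 45.3% in those without.

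**Figure D4:**
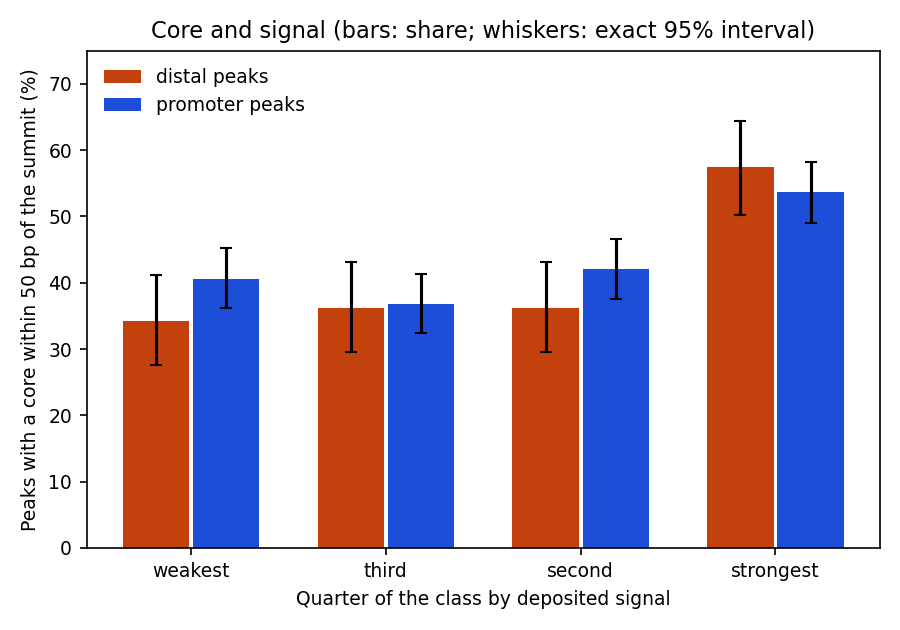
Share of peaks with a core within 50 bp of the summit (%) in 4 groups of each class by deposited signal, from weakest to strongest, for distal peaks (left bar of each pair) and promoter peaks (right bar), with exact 95% intervals as whiskers. Distal peaks stand at 34.2%, 36.1%, 36.1% and 57.4%, and promoter peaks at 40.6%, 36.8%, 42.0% and 53.6%.

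The versions of the core were then counted apart, in 4 tests chosen after the values were seen. ACGTG was more frequent at distal summits, at 229 of 808 (28.3%, 95% interval 25.3% to 31.6%), than at promoter summits, at 450 of 1923 (23.4%, 21.5% to 25.4%), with an odds ratio of 1.29 (Fisher's exact test, two-sided, adjusted p = 0.0101). GCGTG was less frequent, at 130 distal summits (16.1%, 13.6% to 18.8%) and 459 promoter summits (23.9%, 22.0% to 25.8%), an odds ratio of 0.612 (adjusted exact p = 1.09e-05). Both kept their side of the threshold in 11 of 11 alternatives, with adjusted p up to 0.0205 for ACGTG and 0.00316 for GCGTG. Mean GC content at promoter summits was 46.8% ± 8.05 (SD, 1923 peaks), beside 45.6% at distal ones.

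Within the distal peaks, ACGTG went with the signal. It was present at 95 of the 202 strongest peaks (47.0%) and 47 of the 202 weakest (23.3%), an odds ratio of 2.93 (Fisher's exact test, two-sided, adjusted p = 3.27e-06). Of all 512 strand-merged 5-letter words, ACGTG had the greatest difference between these groups. GCGTG was present at 34 (16.8%) and 28 (13.9%) of 202, an odds ratio of 1.26 (adjusted exact p = 0.490), and ranked 105th of the 512. The GCGTG odds ratio reached 1.69 with a promoter window of 500 bp (adjusted exact p = 0.0303) and was 0.965 without replicate 2. The difference between the versions in this respect was not tested. The palindrome CACGTG, which is also the E-box of Myc-like and other bHLH proteins, was found at 61 distal summits (7.55%), 18 of their flanks (2.23%) and 99 promoter summits (5.15%).

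A search over all 2080 strand-merged 6-letter words set these counts against the rest of the sequence. Of these words, 447 (21.5%) were more frequent at distal summits than in the flanks and 281 (13.5%) less frequent (exact McNemar test, adjusted p below 0.05). Of the 16 words that hold the core, 14 were among the more frequent. CG was held by 50.1% of the 447 (224 words) and by 29.0% of all 2080, and none of the 447 was among the 36 words of A and T alone. The words with the smallest adjusted p were GAGAGA, at 249 summits and 46 flanks (30.8% and 5.69%, adjusted exact p = 2.88e-36), AGAGAG (217 and 39), AGAGAC (162 and 30), ACGCAG (123 and 13) and AAGAGA (210 and 59). ACGCAG stood 9.46 times as often at summits as in flanks. The words that were less frequent with the smallest adjusted p were AAAATT (119 summits and 412 flanks), TTAAAA (39 and 266), AAAAAT (180 and 446), TAAAAA (88 and 314) and AAATTT (57 and 251).

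GAGAGA did not go with the signal in the way of the core. It was present at 62 of the 202 strongest peaks and 61 of the 202 weakest, and the median signal was 150 with it and 147 without it. The 353 strongest IDR peaks included 18 of the 249 distal peaks with GAGAGA and 64 of the 559 without it, a lower share with the word. The core was found at 88 of the 249 distal peaks with GAGAGA (35.3%) and 243 of the 559 without it (43.5%), and 316 of the 808 had neither. No test was run on these counts. As background, the GAGA repeat is bound by other factors in animals, and none was assayed here.

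Sequence also differed between location classes. At distal summits, 74 of 2080 6-letter words (3.56%) were more frequent than at promoter summits and 136 (6.54%) less frequent (Fisher's exact test, adjusted p below 0.05). CG was present in 8 of the 74 (10.8%) and in 91 of the 136 (66.9%), beside 29.0% of all 2080 words. The more frequent ones with the smallest adjusted p were AGAGCC (5.82% of distal and 1.98% of promoter summits, adjusted exact p = 0.000102), AAAGAG (21.0% and 13.6%), TGACCA (6.93% and 2.86%), GAGCCC (4.33% and 1.30%) and AGATCA (6.31% and 2.50%). The less frequent ones were AACGCG (3.47% and 11.4%, adjusted exact p = 2.28e-09), ACGCGC (5.07% and 13.7%), GGCCTA (1.61% and 7.54%), AGTGCG (2.60% and 8.94%) and GCGCAC (4.95% and 12.4%). Of the 16 words with the core, 0 were more frequent at distal summits and 4 less frequent. The 210 words of this comparison came to 57 among peaks above the median IDR signal, to 64 with a promoter window of 2000 bp and to 137 without replicate 2.

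Distal peaks lay at a median of 2283 bp from the nearest protein-coding start (quartiles 1494 and 3528 bp, range 313 to 16624 bp). The summit was upstream of that start in 598 peaks and downstream of it, past the end of the gene, in 210. Up to 2 kb from a start lay 41.8% of the distal peaks, beside 34.2% of eligible bases, and more than 5 kb away lay 12.4%, beside 20.5%. The peaks beyond 5 kb numbered 100, of which 4 were among the 353 strongest IDR peaks, against 38 of 338 up to 2 kb and 40 of 370 in between. The core was present at 41.1%, 40.8% and 41.0% of the peaks from near to far. Spaces between divergent genes held 251 peaks (31.1%, beside 29.9% of eligible bases), tandem spaces 475 (58.8%, beside 53.4%) and convergent spaces, which hold no gene start at either edge, 82 (10.1%, beside 16.4%). Counted once per distal peak, the space around it had a median length of 5971 bp.

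The rule cuts at 1000 bp upstream of a start. The 35 distal peaks whose nearest start lay 1001 to 1100 bp downstream had a median signal of 167 (95.1 to 1905) and the core at 13. The 39 peaks left out at 901 to 1000 bp had a median of 171 (103 to 3614) and the core at 20. The jmjd-2, cysl-3 and ppm-2 peaks are among those just inside.

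Per chromosome, distal peaks were more frequent than eligible bases give on X and less frequent on IV and V. X held 218, 1.19 times the expected number (exact binomial test, two-sided, adjusted p = 0.00733), IV held 120 (0.741 times, adjusted exact p = 0.000925) and V held 128 (0.766 times, adjusted exact p = 0.00176). Chromosomes I (113, 1.25 times, adjusted exact p = 0.0210) and III (112, 1.24 times, adjusted exact p = 0.0227) were also above, and II held 117 (1.01 times, adjusted exact p = 0.880). Without summits within 250 bp of pseudogenes or other non-coding RNA genes, X stood at 1.03 and IV at 0.953 times (adjusted exact p = 0.822 for both), and I and III lost their calls in several alternatives. Only V kept its call in that setting (0.756 times, adjusted exact p = 0.0122). Among peaks above the median IDR signal no chromosome kept a call, V at 0.843 times (adjusted exact p = 0.188), IV at 0.776 (0.0966) and X at 1.26 (0.0551) included. Calls on chromosomes treat peaks as independent, which neighbouring peaks are not.

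**Figure D5:**
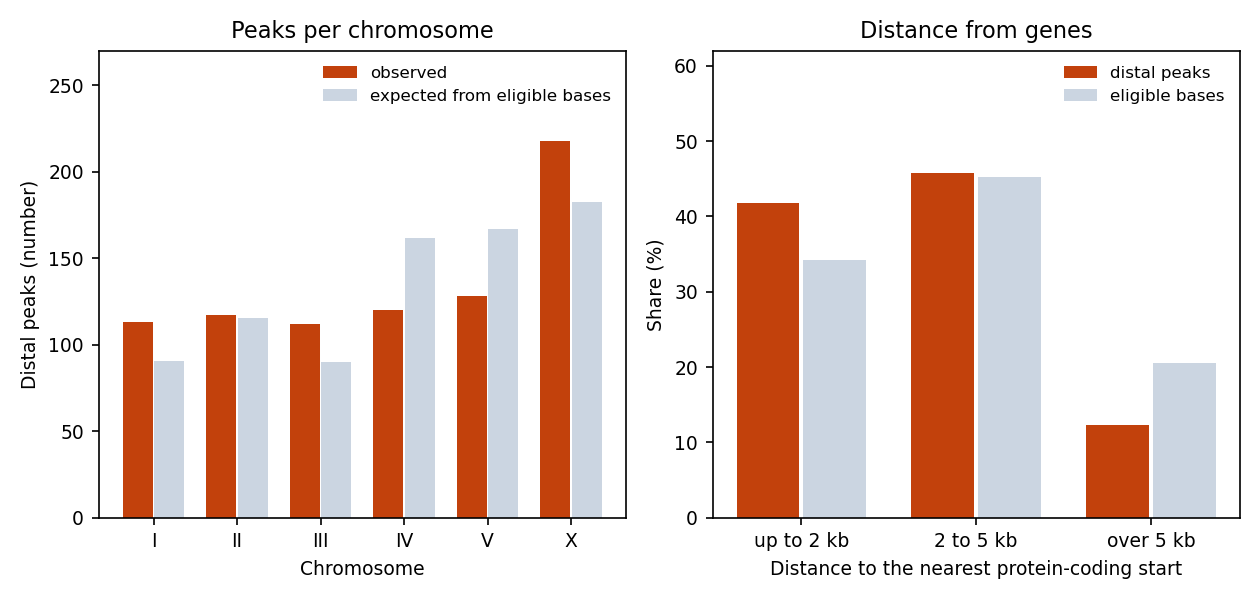
Left, number of distal peaks per chromosome (orange) and the number expected from the eligible bases of each (grey); right, share of distal peaks (orange) and of eligible bases (grey) by distance to the nearest protein-coding start (%). X stands at 218 peaks, and 12.4% of the peaks but 20.5% of eligible bases lie over 5 kb from a start.

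Distal peaks fell into 596 spaces between protein-coding genes, of which 462 held 1 distal peak, 86 held 2 and 48 held at least 3. Of the 808 peaks, 346 thus shared their space with another. The number expected from the lengths of the spaces was not computed. Another IDR summit lay within 1000 bp of 168 distal peaks (20.8%), beside 14.7% of promoter peaks. The fullest space, 9049 bp between R03E9.2 and mdl-1 on X, held 8 distal peaks with signals up to 800, and 6 of them had a core. Next came 6 peaks between mxl-3 and C49F8.15 (up to 595, 3 with a core) and 5 between nhr-3 and C44H4.4 (up to 1065, 4 with a core). The mdl-1 and mxl-3 genes encode a Mad-like and a Max-like protein, members of the same network of bHLH proteins as MML-1. A wide region gave several summits in some cases, and 22 distal peaks shared their interval with another.

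Other annotated features lay at part of the peaks. The summit fell inside a non-coding RNA gene not covered by the rule at 62 distal peaks, inside a lincRNA at 10 and inside a pseudogene at 9, 79 in all. Within 250 bp of such a gene or of a piRNA gene lay 159. Without such summits, the distal share went from 22.9% to 18.4% of IDR peaks. Among other candidate regions it went from 20.8% to 16.8%, a similar change. Over 50% of the window was marked as repeat in the reference at 57 peaks, and 41 windows held a 31-letter sequence found more than once in the nuclear genome. On average 18.0% of the window was marked as repeat, beside 40.4% of eligible bases.

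The nearest starts belonged to 643 of the 19973 protein-coding genes (3.22%). Of these 643, 156 also had a peak in a promoter window (24.3%), beside 2422 of all 19973 (12.1%). Only 11587 of the 19973 genes were nearest to any eligible base, so the shares over all genes are not a matched background. The share with a promoter peak among these 11587 was not computed. Because genes differ in the space around them, each list below is also given as distal peaks per Mb of eligible bases nearest to its genes, which was 32.5 over all genes. None of the lists was tested.

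Genes of the HIF-1 pathway held distal peaks at 4 of 11 (36.4%), with 502 peaks per Mb of eligible bases, or 5 peaks in 9.97 kb. Besides egl-9 and hif-1 these were swan-1, a WD40 protein gene (signal 429, 1487 bp upstream, with a core), and cysl-1, whose product binds EGL-9 (109, 2184 bp upstream, without one). No distal peak was nearest to the other 7, which include vhl-1, rhy-1 and aha-1. Of 15 reported hypoxia genes, 4 had one (26.7%, 270 per Mb): egl-9, cysl-2, dct-1 and ftn-2. Those of dct-1, the BNIP3-like mitophagy gene, had signals of 407, 387 and 203, and that of ftn-2, a ferritin gene, had 381 with 4 core matches.

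Genes of glycolysis and gluconeogenesis held distal peaks at 7 of 27 (25.9%, 507 per Mb), and 6 of the 8 peaks had a core. After tpi-1 and pfk-1.1 the strongest was that of fbp-1, fructose bisphosphatase (466, 1366 bp upstream). The others lay near aldo-1 (254), ldh-1 (187), hxk-1 (104) and pyk-1 (95.1). The tricarboxylic acid cycle had 3 of 23 (298 per Mb), led by mdh-2, malate dehydrogenase (246), then ogdh-1 (142) and idh-1 (111), the last of which was missing from the list of replicate 1. The list of heat shock and chaperone genes had 2 of 25 (138 per Mb), hsp-25 (145) and hsf-1 (123). The hsf-1 peak is counted again among the stress regulators. JmjC demethylases had 2 of 11 (132 per Mb), jmjd-2 and jmjd-3.1 (118).

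Stress regulators held distal peaks at 7 of 20 (35.0%, 539 per Mb), with 19 peaks of which 8 had a core. After mml-1 the highest were those of atfs-1, the regulator of the mitochondrial unfolded protein response (347), and mdl-1 (294). Of the 19 peaks, mdl-1 had 8 and mxl-3 had 4, so these genes gave most of them. The nuclear hormone receptors, a large family in the worm, had 21 of 269 (7.81%, 68.8 per Mb) and 31 peaks, 15 with a core. After nhr-3 and nhr-19 the highest was nhr-21 (413).

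Among markers of tissues, neuron markers had 7 of 20 (35.0%, 180 per Mb), 2 of their 8 peaks with a core, led by egl-3 (204), snb-1 (188) and unc-64 (184), genes of neuropeptide processing and synaptic release. Muscle markers had 1 of 20 (unc-97, 161, 38.3 per Mb). Germline and embryo markers had 0 of 20, hypodermis markers 0 of 20 and intestine markers 0 of 19, for which the upper 95% limits were 16.8%, 16.8% and 17.6%. The eligible bases nearest to these genes came to 8.94 kb for germline and embryo markers, 44.0 kb for hypodermis markers and 33.1 kb for intestine markers, in which the value over all genes would give 0.291, 1.43 and 1.08 peaks. Cytosolic ribosomal protein genes had 0 of 81 (up to 4.45%) in 48.9 kb of eligible bases, where it would give 1.59.

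The lists below had fewer distal peaks per Mb than all genes together, unlike the nuclear hormone receptors, but the small lists by few peaks. At the value over all genes, the chemoreceptors would have 42.7 peaks beside 6 found, and neuropeptides 11.7 beside 4. For ceh genes it would give 4.21 beside 1, and for hlh genes 2.55 beside 1. Collagens would have 4.77 beside 4, close to that value, and Hedgehog-related genes 3.61 beside 2. The serpentine chemoreceptors, with 1313 kb, had 6 of 1299 (0.462%, 4.57 per Mb), led by srg-33 (264), srab-24 (158) and srg-64 (150). Neuropeptides had 4 of 140 (11.1 per Mb), led by flp-34 (299), nlp-40 (264) and nlp-68 (110). Homeobox genes named ceh had 1 of 63 (ceh-48, 139, 7.72 per Mb) and bHLH genes named hlh 1 of 25 (hlh-29, 125, 12.8 per Mb). Collagens had 3 of 156 (27.2 per Mb), among them col-78 (387), col-185 (143) and col-108 (137), and Hedgehog-related genes 2 of 85 (18.0 per Mb), ptc-1 (126) and ptr-21 (97.7).

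As a class, distal sites were slightly more frequent among IDR peaks than among weaker regions. They were 22.9% of IDR peaks and 20.8% of the other candidate regions (5506 of 26469, 95% interval 20.3% to 21.3%), an odds ratio of 1.13 (Fisher's exact test, two-sided, p = 0.00490). The call was lost without replicate 1 (1.08, exact p = 0.0617), among peaks above the median IDR signal (1.01, exact p = 0.928) and with a promoter window of 2000 bp (1.02, exact p = 0.649).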

How the data were processed

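HIF-1 binding was measured by ChIP-seq in 2 biological replicates of 1 group. Per the file lists deposited with the samples, the authors called regions against a control alignment for each replicate and for both pooled, and derived an optimal list by the irreproducible discovery rate (IDR), a measure of agreement between replicates. Each region's signal is a value deposited by the authors, on a scale that is not stated. Names and versions of the aligner and peak caller were not given in the sources used here. Lists on ce11 were used, with 3531 IDR peaks and 30000 candidate regions, and the ce10 lists were not used here.

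Summits were placed against 19973 protein-coding genes and 29314 starts of their protein-coding transcripts (Ensembl release 115, WBcel235). Where classes overlap, small non-coding RNA genes came first, then promoter windows, then gene bodies. Windows were 101 bp, with 1 flank 500 bp to the left or right in turn. Tests were exact McNemar, Fisher, sign and binomial tests, two-sided, in scipy 1.17.1 with pandas 2.3.3 and numpy 2.4.6 under Python 3.11.15. Benjamini-Hochberg adjustment ran over the 2 class comparisons of the core, the 6 chromosomes, the 4 tests of core versions or the 2080 words, with a threshold of 0.05. The code of the word tests was checked on simulated data.

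The members and lists were chosen with earlier results of these data known. Genes named are those nearest to the 20 strongest distal peaks, every gene of the HIF-1 pathway and hypoxia lists with a distal peak, up to 3 of each other list by signal, the 5 words with the smallest adjusted p per comparison and direction, and genes in the fullest spaces, around the shown loci and further genes of the glycolysis list, chosen after their values were seen. The tests of core versions, the alternative without repeats and that without peaks near hif-1 were also chosen after seeing the data. The tests treat peaks as independent, which neighbouring summits are not.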

Additional observations from a re-analysis of the deposited data

How the results depend on the processing

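Of 229 alternative values, 189 kept their direction and side of the threshold or, for counts without a test, stayed within 1.5 times the main value. Of the others, 18 lost a call, 4 gained one, 10 turned and 8 counts moved by more than 1.5 times. The core at summits against flanks (2.55 to 3.53 times over 15 alternatives), the core by signal, GC content (1.32 to 1.41 times over 13) and the core versions against promoter peaks kept direction and call in all. The causes of the changes below were not tested, except that fewer peaks enter with a higher signal cut or a wider promoter window.

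Among peaks above the median IDR signal, there were 373 distal peaks and 322 nearest genes, 418 words against flanks and 57 against promoter peaks. There the odds ratio of the distal share was 1.01, of the core against promoter peaks 1.04 and of presence in both replicates 1.22, and the ratios for chromosomes I, II, III, IV, V and X were 1.03, 0.881, 1.29, 0.776, 0.843 and 1.26, none of them past the threshold. With a promoter window of 2000 bp, there were 528 distal peaks, 417 nearest genes and 64 words against promoter peaks, the odds ratio of the distal share was 1.02, and I, II and III stood at 1.10, 0.914 and 1.14.

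With the strongest regions of 1 replicate in place of the IDR peaks, the distal share odds ratio was 1.08 to 1.13. The core against gene-body peaks had 0.918 to 1.14 and GCGTG by signal 0.965 to 1.09. There were 137 to 186 words against promoter peaks. The chromosome ratios were 1.15 to 1.20 for I, 0.958 to 0.978 for II and 1.20 to 1.35 for III. Without summits near other non-coding genes, I, III, IV and X stood at 1.23, 1.14, 0.953 and 1.03. With repeats left out, II and III stood at 0.985 and 1.16. A motif window of 100 bp gave 1.11 for the core against promoter peaks, and GCGTG by signal was 1.69 with a promoter window of 500 bp. Presence in both replicates had odds ratios of 0.567 with 1 summit per 500 bp and 0.717 with a match within 50 bp, and the share above the median IDR signal in place of the 353 strongest peaks gave 0.719.

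No paired analysis was possible because the series has 1 group. With no read counts, depth is unknown and sets an unknown limit on the weak peaks, which were the ones most often missing from a replicate.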
